A study of Mus musculus with 12 samples.

Results

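The osteoblast lineage genes described here are Runx2, Sp7, Alpl, Bglap, Ibsp, Spp1, Postn, Phex and Dlx5. The 9 symbols were taken by name, with earlier results of these data known when the list was chosen. Of these, 7 were annotated to 1 probe set each among the 19505 genes measured, and Runx2 and Spp1 were not analysed here. RNA came from mouse primary embryonic fibroblasts of strain C57/BL6, taken from E13.5 embryos, and was hybridised to Affymetrix expression arrays. The 12 arrays fall into 4 genotypes of 3 arrays each, named Sos1/2DKO, Sos1KO, Sos2KO and WT (called Sos1WT in the label on growth). All 4 groups, WT included, received 4-hydroxytamoxifen for 12 days and were harvested before confluence. 4-hydroxytamoxifen is the ligand that switches on tamoxifen-inducible Cre, but the labels name neither a Cre driver nor the embryo or litter behind each culture. The p-values therefore measure the spread between cultures of a group as labelled.

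Osteoblasts arise from mesenchymal progenitors under the transcription factors Runx2 and Sp7 (osterix), and the homeobox factor Dlx5 acts early in the same programme, downstream of BMP signals. Maturing cells make alkaline phosphatase (Alpl), which clears the mineralisation inhibitor pyrophosphate, then matrix proteins such as bone sialoprotein (Ibsp), osteopontin (Spp1) and osteocalcin (Bglap), while Phex, a membrane peptidase best known from phosphate wasting, marks late osteoblasts and osteocytes. Postn encodes periostin, a matrix protein of the periosteum that fibroblasts of many tissues also make. SOS1 and SOS2 are exchange factors that load RAS with GTP below growth factor receptors, and the comparisons ask what losing one or both does to transcript levels in fibroblasts.

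Promoter windows of these genes were searched for the letters of the RUNX core site. RefSeq windows of GRCm38.p6, from 250 bases before to 50 bases after a start site, were matched by symbol for 5 of the 7 measured genes, Alpl, Bglap, Ibsp, Postn and Phex, with 7 windows in all. The letters ACCACA, the core that RUNX factors bind, or TGTGGT on the other strand, were found in 1 of the 7 windows, that of Bglap, beginning 132 bases before the start. Of all 32851 mouse windows in the table, 16.8% hold the same letters. The windows of the matrix protein genes Bglap (minus strand, chr3:88384417-88384716) and Ibsp (plus strand, chr5:104299037-104299336) are shown as the 1 window with a match and 1 without, each 5′ to 3′ on its own gene's strand, with the match in capitals.
Bglap: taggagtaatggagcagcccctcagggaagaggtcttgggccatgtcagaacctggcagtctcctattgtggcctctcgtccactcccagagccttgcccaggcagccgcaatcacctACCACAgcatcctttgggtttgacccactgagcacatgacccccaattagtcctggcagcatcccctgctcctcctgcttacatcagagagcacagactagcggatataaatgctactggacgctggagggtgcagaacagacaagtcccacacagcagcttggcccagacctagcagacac
Ibsp: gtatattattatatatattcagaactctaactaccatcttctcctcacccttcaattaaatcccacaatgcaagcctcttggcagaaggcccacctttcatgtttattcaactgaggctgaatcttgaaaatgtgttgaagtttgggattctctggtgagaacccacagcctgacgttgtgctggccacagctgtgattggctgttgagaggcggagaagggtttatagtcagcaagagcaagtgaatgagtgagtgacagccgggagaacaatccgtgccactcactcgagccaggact
A match describes these letters only, and says nothing of binding in these cells.

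Values are log2 levels as deposited, so a difference of 1 is a 2-fold change, and levels of different genes are not set against each other. Since no detection call accompanies these values, weak signal was judged against 5222 negative control probe sets, whose 75th percentile lay between 5.01 and 5.76 on the 12 arrays. Postn, Dlx5 and Bglap lay above it on 12 of 12 arrays and Sp7 on 10 of 12. Alpl, Phex and Ibsp lay below it on every array, so the size of any difference in those 3 genes is uncertain. The cultures thus carried measurable Dlx5, Bglap and Postn signal, while Alpl and Ibsp, the genes of alkaline phosphatase and bone sialoprotein, lay below that percentile throughout. Alpl and Postn are also expressed outside bone.

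**Figure D1:**
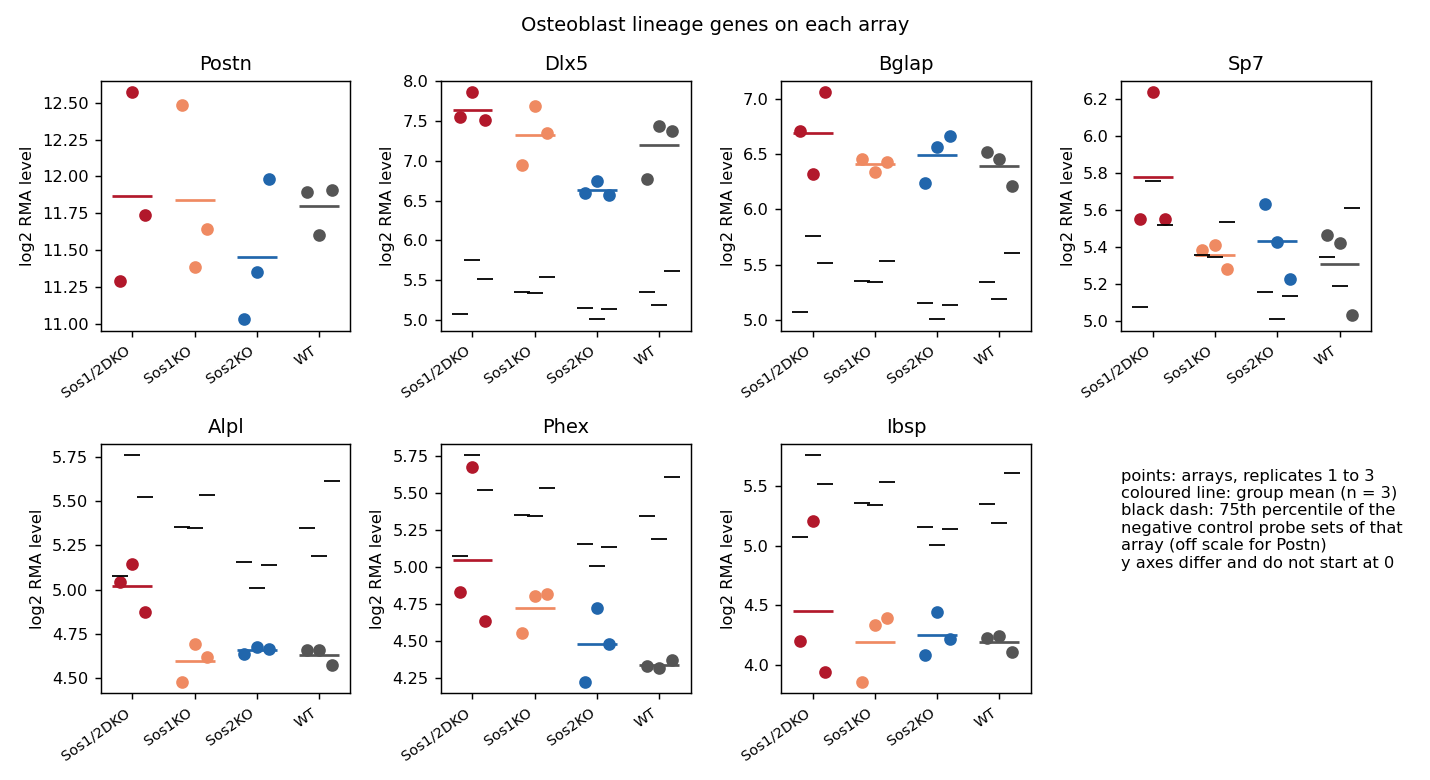
Each panel plots the log2 level of 1 gene (vertical axes differ and do not start at 0) on the 3 arrays of Sos1/2DKO, Sos1KO, Sos2KO and WT, with the group mean as a coloured line and the negative control 75th percentile of each array as a black dash. The 3 Sos2KO arrays hold the lowest Dlx5 levels, with WT replicate 1 just above them. The 3 Sos1/2DKO arrays hold the highest Alpl levels, and Sos1/2DKO replicate 2 tops the panels of Sp7, Ibsp, Phex, Postn, Dlx5 and Alpl.

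The arrays also differed in ways other than genotype. Sos1 lay between 7.13 and 7.96 on the Sos1/2DKO and Sos1KO arrays, against 8.77 to 9.38 on the Sos2KO and WT arrays, and Sos2 lay between 7.56 and 8.03 on the Sos1/2DKO and Sos2KO arrays, against 8.65 to 9.23 on the Sos1KO and WT arrays, so each deleted gene followed the labels. The bacterial poly-A control Dap was present (6.01 to 9.29) on 5 arrays, Sos1/2DKO replicate 1, Sos1KO replicate 3 and all 3 Sos2KO arrays, and near background (3.89 to 4.13) on the other 7. Y-linked genes were expressed on 3 Sos1/2DKO arrays, 1 Sos1KO array, 2 Sos2KO arrays and 1 WT array. Negative controls averaged 5.45 ± 0.35 in Sos1/2DKO, 5.41 ± 0.11 in Sos1KO, 5.10 ± 0.08 in Sos2KO and 5.38 ± 0.21 in WT (75th percentile, SD, n = 3 each).

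Dlx5, the early homeobox regulator, was the only one of the 7 genes that passed the test, and only between Sos1/2DKO and Sos2KO. Its log2 levels were 7.55, 7.86 and 7.52 in Sos1/2DKO, 6.95, 7.69 and 7.34 in Sos1KO, 6.60, 6.75 and 6.57 in Sos2KO, and 6.76, 7.44 and 7.37 in WT. The Sos2KO arrays were all below the 9 others by a narrow margin, the highest at 6.75 against 6.76 for WT replicate 1. The share of all genes with that pattern was not computed. The Sos1/2DKO arrays were all above those of Sos2KO and WT but overlapped with those of Sos1KO. Against Sos2KO, Dlx5 was higher in Sos1/2DKO by 1.00 on the log2 scale (SE 0.22), a 2.00-fold difference with an adjusted p of 0.0194 by limma with Benjamini-Hochberg adjustment over all genes tested. This was 1 of 7 genes in a comparison where 6.14% of all genes were called, and 3.33% were called higher in Sos1/2DKO. In bulk cultures fewer cells of a type and less RNA per cell cannot be told apart.

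The other differences in Dlx5 did not pass. Sos1KO stood 0.69 above Sos2KO (SE 0.22, limma adjusted p 0.0898), with no overlap of arrays. Sos2KO stood below WT, with a difference of -0.55 (limma adjusted p 0.317), and Sos1/2DKO stood 0.45 above WT (limma adjusted p 0.277), again without overlap, and 0.23 above it without WT replicate 1. The order of the 4 group means was Sos1/2DKO at 7.64 ± 0.19, Sos1KO at 7.33 ± 0.37, WT at 7.19 ± 0.37 and Sos2KO at 6.64 ± 0.10 (SD, n = 3 each). Among neighbours in that order, Sos1/2DKO and Sos1KO differed by 0.31 (limma adjusted p 0.772) and Sos1KO and WT by 0.14 (limma adjusted p 0.986), both with overlapping arrays, and the first was 0.12 without Sos1KO replicate 1. The interaction, which asks whether losing both genes differs from the sum of losing each, was 0.87 for Dlx5 (SE 0.31, unadjusted p 0.0148, adjusted p 0.907 by limma). The comparisons with WT share the WT arrays, and those with Sos2KO share the Sos2KO arrays, so a low Sos2KO level enters several of these values at once.

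The size of the Dlx5 difference between Sos1/2DKO and Sos2KO stayed between 0.89 and 1.07 over 18 alternative settings, but its call was lost in 6 of them. Some of the 18, such as every probe set or a trended robust prior, cannot change a difference of group means. The looser threshold of an adjusted p under 0.25 could not lose the call. Leaving out Sos1/2DKO replicate 2, Sos2KO replicate 1 or Sos2KO replicate 2 gave differences of 0.89, 0.98 and 1.06 with limma adjusted p of 0.0561, 0.0727 and 0.0528. With array weights the difference was 0.97 (adjusted p 0.0757), with the Dap spike-in as a term it was also 0.97 (adjusted p 0.109), and with each array's negative control level as a term it was 0.92 (adjusted p 0.143). Dlx5 correlated with the negative control level with r = 0.58 over the 12 arrays, a description of arrays that share genotype and normalisation. All 3 Sos2KO arrays and 1 of 3 Sos1/2DKO arrays carried the spike-in.

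**Figure D2:**
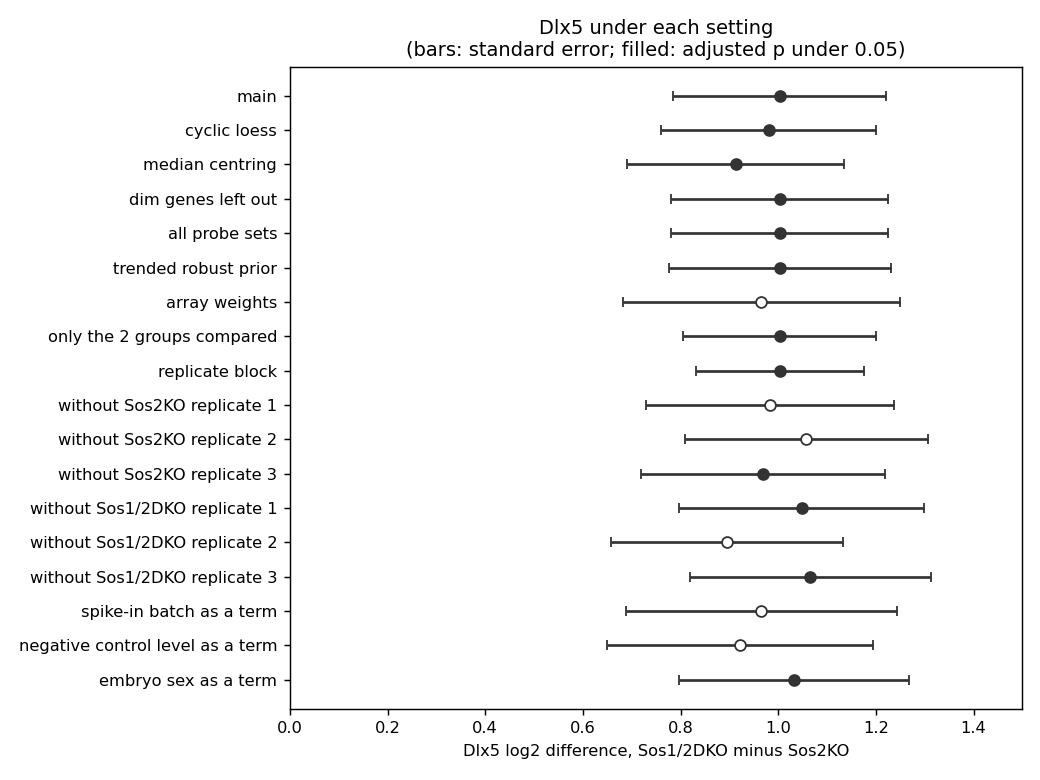
The horizontal axis is the log2 difference in Dlx5, Sos1/2DKO minus Sos2KO, and each line of the vertical axis is 1 setting of the analysis; bars are standard errors and filled points have an adjusted p under 0.05. Every estimate lies between 0.89 and 1.07, while the filled and open points show which settings keep and which lose the call.

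The genes whose log2 levels followed Dlx5 most closely across the 12 arrays, among 12517 genes searched, were Gpc3 (r = 0.949), which encodes the cell surface proteoglycan glypican 3, Rgs5 (r = 0.941), a regulator of G protein signalling, and Mest (r = 0.927), an imprinted gene expressed from the paternal allele. These are descriptions chosen for their likeness, with the array effects above common to all points.

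Sp7, the zinc finger factor that commits cells to the osteoblast fate, lay near the negative controls. Its log2 levels were 5.55, 6.24 and 5.55 in Sos1/2DKO, 5.38, 5.41 and 5.28 in Sos1KO, 5.63, 5.43 and 5.23 in Sos2KO, and 5.47, 5.42 and 5.03 in WT. Sos1/2DKO lay above all Sos1KO and WT arrays and overlapped with Sos2KO. The differences were 0.47 against WT (SE 0.20, limma adjusted p 0.214), 0.42 against Sos1KO (adjusted p 0.699) and 0.35 against Sos2KO (adjusted p 0.345). Without Sos1/2DKO replicate 2, the array with the highest negative control level of all 12, the differences were 0.24 from WT, 0.19 from Sos1KO and 0.12 from Sos2KO.

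Alpl, the alkaline phosphatase used as the stain for osteoblast differentiation, was the 1 gene of the 7 for which every Sos1/2DKO array exceeded all 9 others, as did 1.64% of all genes (319 of 19505). Its log2 levels were 5.04, 5.14 and 4.87 in Sos1/2DKO, 4.48, 4.69 and 4.62 in Sos1KO, 4.63, 4.67 and 4.67 in Sos2KO, and 4.66, 4.66 and 4.57 in WT. The 9 arrays outside Sos1/2DKO spanned a narrow range, and all 12 were below the negative control percentile. Sos1/2DKO minus WT was 0.39 (SE 0.13, limma adjusted p 0.109), Sos1/2DKO minus Sos1KO was 0.42 (adjusted p 0.588) and Sos1/2DKO minus Sos2KO was 0.36 (adjusted p 0.122). The interaction was 0.40 (adjusted p 0.907), so none passed the test.

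Phex, the peptidase of late osteoblasts and osteocytes, had log2 levels of 4.83, 5.68 and 4.63 in Sos1/2DKO, 4.55, 4.80 and 4.82 in Sos1KO, 4.22, 4.72 and 4.48 in Sos2KO, and 4.33, 4.31 and 4.37 in WT. WT was tight and had the lowest mean, although Sos2KO replicate 1 lay below every WT array. All Sos1/2DKO and Sos1KO arrays lay above every WT array, with 1 Sos1/2DKO array standing apart. Sos1/2DKO minus WT was 0.71 (SE 0.23, limma adjusted p 0.103), and 0.39 without Sos1/2DKO replicate 2. Sos1KO minus WT was also 0.39 (SE 0.23, adjusted p 0.666). In the authors' deposited table for Sos1KO against WT, which lists probe sets up to an adjusted p of 0.25 from a fit of those groups alone, Phex appears with a log2 fold change of 0.39 and an adjusted p of 0.206. It was the only measured gene of the 9 in any of the authors' 3 deposited tables. Sos1/2DKO minus Sos1KO was 0.32 (adjusted p 0.777) and Sos1/2DKO minus Sos2KO was 0.57 (adjusted p 0.173), and without Sos1/2DKO replicate 2 these were 0.0065 and 0.26.

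The matrix protein genes showed smaller differences. Ibsp, which seeds mineral crystals, had log2 levels of 4.20, 5.21 and 3.95 in Sos1/2DKO, 3.86, 4.33 and 4.40 in Sos1KO, 4.09, 4.44 and 4.22 in Sos2KO, and 4.23, 4.25 and 4.11 in WT. The Sos1/2DKO group held both a high and a low array, and its mean was 0.26 above WT (limma adjusted p 0.653) but -0.12 relative to WT without replicate 2. Bglap, whose protein osteocalcin is secreted by mature osteoblasts, had log2 levels of 6.71, 6.32 and 7.06 in Sos1/2DKO, 6.45, 6.34 and 6.43 in Sos1KO, 6.24, 6.57 and 6.66 in Sos2KO, and 6.52, 6.45 and 6.21 in WT. Its groups overlapped, and Sos1/2DKO minus WT was 0.30 (adjusted p 0.417), 0.49 without Sos1/2DKO replicate 2 and 0.12 without Sos1/2DKO replicate 3. Bglap has a near-identical neighbour, Bglap2, which correlated with it at r = 0.90 over the arrays and differed by 0.33 between Sos1/2DKO and WT (adjusted p 0.333), so the signal of the 2 copies may be shared and the identity of the Bglap signal is uncertain.

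Postn, a matrix protein that fibroblasts themselves secrete, had log2 levels of 11.29, 12.57 and 11.73 in Sos1/2DKO, 12.49, 11.38 and 11.64 in Sos1KO, 11.03, 11.35 and 11.98 in Sos2KO, and 11.89, 11.60 and 11.91 in WT. The groups overlapped throughout, with wide spread in each knockout group. Sos1/2DKO minus WT was 0.064 (SE 0.35, limma adjusted p 0.942), and its sign turned under median centring, to -0.0082. Sos2KO minus WT was -0.35 (adjusted p 0.663), -0.14 without Sos2KO replicate 1 and -0.61 without Sos2KO replicate 3.

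**Figure D3:**
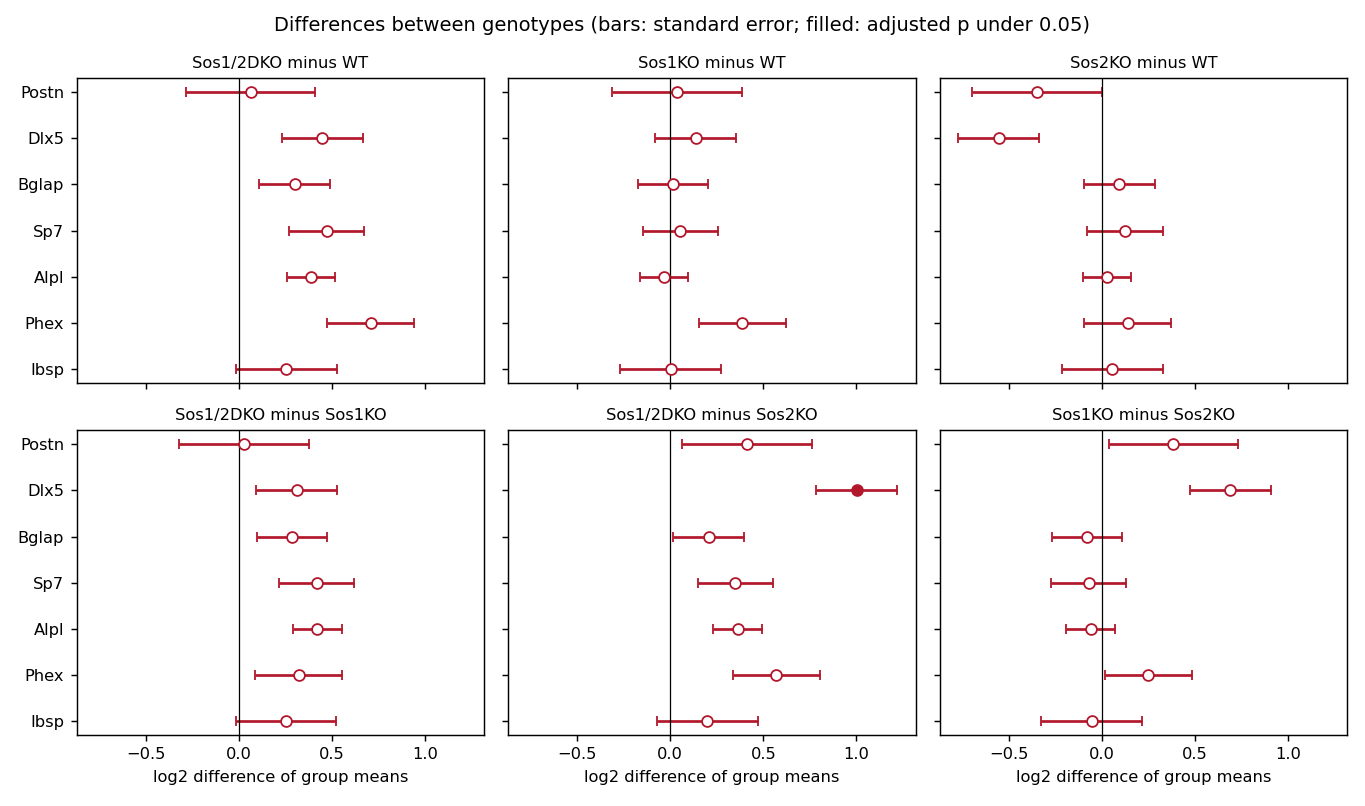
Points give the log2 difference of group means for each of the 7 measured genes in each pair of genotypes, with standard errors as bars; a filled point has an adjusted p under 0.05. The single filled point is Dlx5 in Sos1/2DKO minus Sos2KO at 1.00, and all 7 points lie right of 0 in the 3 panels that start from Sos1/2DKO.

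In Sos1/2DKO against WT, 7 of 7 differences were above 0, as were 57.4% of all genes, with a median of 0.39 for the 7 genes against 0.055 for all genes. On the lists described below, so were 8 of 8 osteocyte and 12 of 13 bone matrix genes. So were 8 of 8 chondrocyte, 6 of 6 adipocyte and 5 of 5 tenocyte markers. Other lists had smaller shares, from 8 of 12 osteoblast transcription regulators to 0 of 8 osteopontin and periostin receptors. Without Sos1/2DKO replicate 2, Ibsp (-0.12) and Postn (-0.29) were below 0. None of the 7 was called by limma where 5.94% of all genes were. At an unadjusted p under 0.05 there were 3, Sp7, Alpl and Phex, where 19.8% of all genes passed, and arrays did not overlap for 4, those 3 and Dlx5, as for 11.9% of all genes in that direction. At an adjusted p under 0.25, the authors' threshold, those 3 would be called in the fit of 4 groups, beside 8.4% of all genes higher. The authors' fit, of 2 groups and every probe set, called 0 of the 7 at that threshold. Its limma adjusted p was 0.436 for Sp7, 0.309 for Alpl and 0.301 for Phex. Against Sos2KO, 7 of 7 were again above 0 (51.8% of all genes), with a median of 0.36 against 0.014 for all genes, and limma called 1, Dlx5, beside 6.14% of all genes. At an unadjusted p under 0.05, Alpl, Phex and Dlx5 passed, with 22% of all genes, and Alpl and Dlx5 had no overlap, as did 10.2% of all genes in that direction. At an adjusted p under 0.25 those 3 would be called, beside 12.7% of all genes higher. Against Sos1KO, 0 of the 7 were called by limma, where 0.00513% of all genes were. Sos2, deleted in Sos1/2DKO but not in Sos1KO, was not called there either, at -1.02 (limma adjusted p 0.266). Among the 7, 1 (Alpl) passed an unadjusted p under 0.05, with 7.2% of all genes. Sp7 and Alpl had no overlap, as did 6.45% of all genes in that direction. These 3 comparisons share the Sos1/2DKO arrays, so the 3 counts are not separate pieces of evidence.

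The single knockouts gave fewer differences. For Sos1KO against WT, limma called 0 of the 7 genes and 0.62% of all genes, and 0 of the 7 passed an unadjusted p under 0.05 (11.1% of all genes). Phex alone had no overlap, lying wholly above WT (10.4% of all genes in that direction). For Sos2KO against WT, limma called 0 of the 7 and 0% of all genes, 1 of the 7 (Dlx5) passed an unadjusted p under 0.05 (13.9% of all genes), and Dlx5 alone lay wholly below WT (10.7% of all genes). The deleted Sos2 was itself not called there, with a difference of -1.14 and no overlap (limma adjusted p 0.278). A count of 0 in that comparison therefore does not show that the 7 genes were unchanged. For Sos1KO against Sos2KO, 0 of the 7 were called beside 4.29% of all genes, and Dlx5 alone passed an unadjusted p under 0.05 (20.9%). Dlx5 alone also had no overlap, lying wholly above Sos2KO (13.6% of all genes in that direction). For the interaction, limma called 0 of the 7 and 0% of all genes, and Dlx5 alone passed an unadjusted p under 0.05 (4.93%).

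Across the 12 arrays, the weak genes varied together. Pearson's r was 0.82 between Ibsp and Phex, 0.76 between Sp7 and Alpl, 0.74 between Alpl and Phex, 0.71 between Sp7 and Phex and 0.62 between Alpl and Ibsp. This was not particular to the weak genes, since Dlx5 had 0.62 with Phex, 0.59 with Alpl, 0.41 with Ibsp and 0.35 with Sp7. Bglap was near 0 with Sp7 (-0.011) and Phex (-0.0065), at 0.30 with Alpl and at -0.30 with Ibsp. These are descriptions over 12 arrays that share genotype, normalisation and the high Sos1/2DKO replicate 2. Correlations with the negative control level were 0.62 for Postn, 0.48 for Phex, 0.36 for Ibsp, 0.27 for Sp7, 0.22 for Alpl and -0.20 for Bglap, and the part of background in the levels was not tested.

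Other bone-related genes were set beside these 7 on 6 lists, with 63 of 69 genes measured. In Sos1/2DKO against WT, 3 rose and 2 fell (7.94% called, near the 5.94% of all genes), and in Sos1/2DKO against Sos2KO, 7 rose and 2 fell (14.3% called, beside 6.14% of all genes). Over all genes, 1197 were called in Sos1/2DKO against Sos2KO, 289 with the spike-in term and 73 with the negative control term. The list genes were not examined under these terms, so their calls against Sos2KO are uncertain. In Sos1/2DKO against WT, 1158 genes were called, 404 with a term for embryo sex and 268 without WT replicate 1. The list genes were not examined in those settings either, so their calls against WT are also uncertain. All 3 list genes that rose against WT encode receptors. Fgfr2, the FGF receptor mutated in craniosynostosis, had log2 levels of 9.76, 10.06 and 9.37 in Sos1/2DKO, 7.28, 9.29 and 9.73 in Sos1KO, 7.14, 7.17 and 7.15 in Sos2KO, and 7.64, 7.38 and 7.85 in WT. It rose by 2.10 in Sos1/2DKO against WT (adjusted p 0.0195) and by 2.58 against Sos2KO (adjusted p 0.00983), both by limma. Its Sos1KO arrays spread widely, from near WT to the Sos1/2DKO level.

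Pth1r, the parathyroid hormone receptor of osteoblasts and chondrocytes, had log2 levels of 7.92, 7.98 and 7.44 in Sos1/2DKO, 6.44, 7.63 and 7.55 in Sos1KO, 5.62, 5.86 and 6.19 in Sos2KO, and 6.33, 6.43 and 6.45 in WT. Its Sos1/2DKO arrays lay above all WT and Sos2KO arrays, and it rose by 1.37 against WT (limma adjusted p 0.0153) and by 1.89 against Sos2KO (adjusted p 0.00647). Fgfr3, a restraint on cartilage growth, rose by 1.22 against WT (adjusted p 0.0244). Against Sos2KO, the BMP receptor Bmpr1a rose by 1.33 (adjusted p 0.036), the WNT co-receptor Lrp6 by 1.02 (adjusted p 0.0411), the fibrillar collagen Col11a1 by 2.05 (adjusted p 0.00884), Sparc, which encodes osteonectin, by 0.72 (adjusted p 0.0233), and Zfp521, a zinc finger repressor of Runx2 activity, by 1.23 (adjusted p 0.019). None of these genes was called against WT. There the Sos1/2DKO differences were 0.58 for Bmpr1a (limma adjusted p 0.373), 0.75 for Lrp6 (0.136) and 1.11 for Col11a1 (0.088). They were 0.30 for Sparc (0.336) and 0.82 for Zfp521 (0.0976).

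The genes that fell encode surface receptors for osteopontin and periostin. Cd44, also the main hyaluronan receptor, had log2 levels of 10.36, 9.41 and 10.30 in Sos1/2DKO, 11.86, 10.46 and 10.37 in Sos1KO, 11.95, 11.60 and 12.22 in Sos2KO, and 12.17, 11.55 and 11.99 in WT. Every Sos1/2DKO array lay below every Sos2KO and WT array, and Cd44 fell, with log2 differences of -1.88 against WT (limma adjusted p 0.0138) and -1.90 against Sos2KO (adjusted p 0.0134). Itgb3, the beta subunit of the alpha v beta 3 integrin, fell too, with log2 differences of -1.45 against WT (adjusted p 0.0139) and -1.27 against Sos2KO (adjusted p 0.0234).

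In both Sos1/2DKO comparisons, 0 of 8 mineralisation genes and 0 of 8 osteocyte genes were called, too few genes to set apart from the 5.94% and 6.14% of all genes called. Of 13 bone matrix genes, 0 were called against WT, with 12 above 0 beside 57.4% of all genes, and 2 against Sos2KO, Col11a1 and Sparc. Omd, which encodes osteomodulin, was at 6.07, 8.47 and 3.89 in Sos1/2DKO and 3.97, 3.42 and 4.06 in WT, and its difference (adjusted p 0.150) rested on 2 of 3 arrays. Its WT levels lay below the negative control percentile, so its size is uncertain. In Sos1KO against Sos2KO, 7.94% of the list genes were called beside 4.29% of all genes. Higher in Sos1KO were 4, Col11a1 by 1.80, Bmpr1a by 1.42, Pth1r by 1.32 and the BMP receptor Bmpr2 by 1.06. Lower was 1, the early osteocyte gene Pdpn (-1.49, limma adjusted p 0.0205). Pdpn averaged 7.52 in Sos1KO, 7.44 in WT, 8.35 in Sos1/2DKO and 9.01 in Sos2KO, so its Sos1KO mean lay near that of WT. Over all genes, 836 were called in that comparison, 12 with the spike-in term and 5 with the negative control term. No gene of the 6 lists was called in Sos1KO against WT, Sos2KO against WT, Sos1/2DKO against Sos1KO or the interaction. In Sos2KO against WT and Sos1/2DKO against Sos1KO, the deleted Sos2 was not called either.

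**Figure D4:**
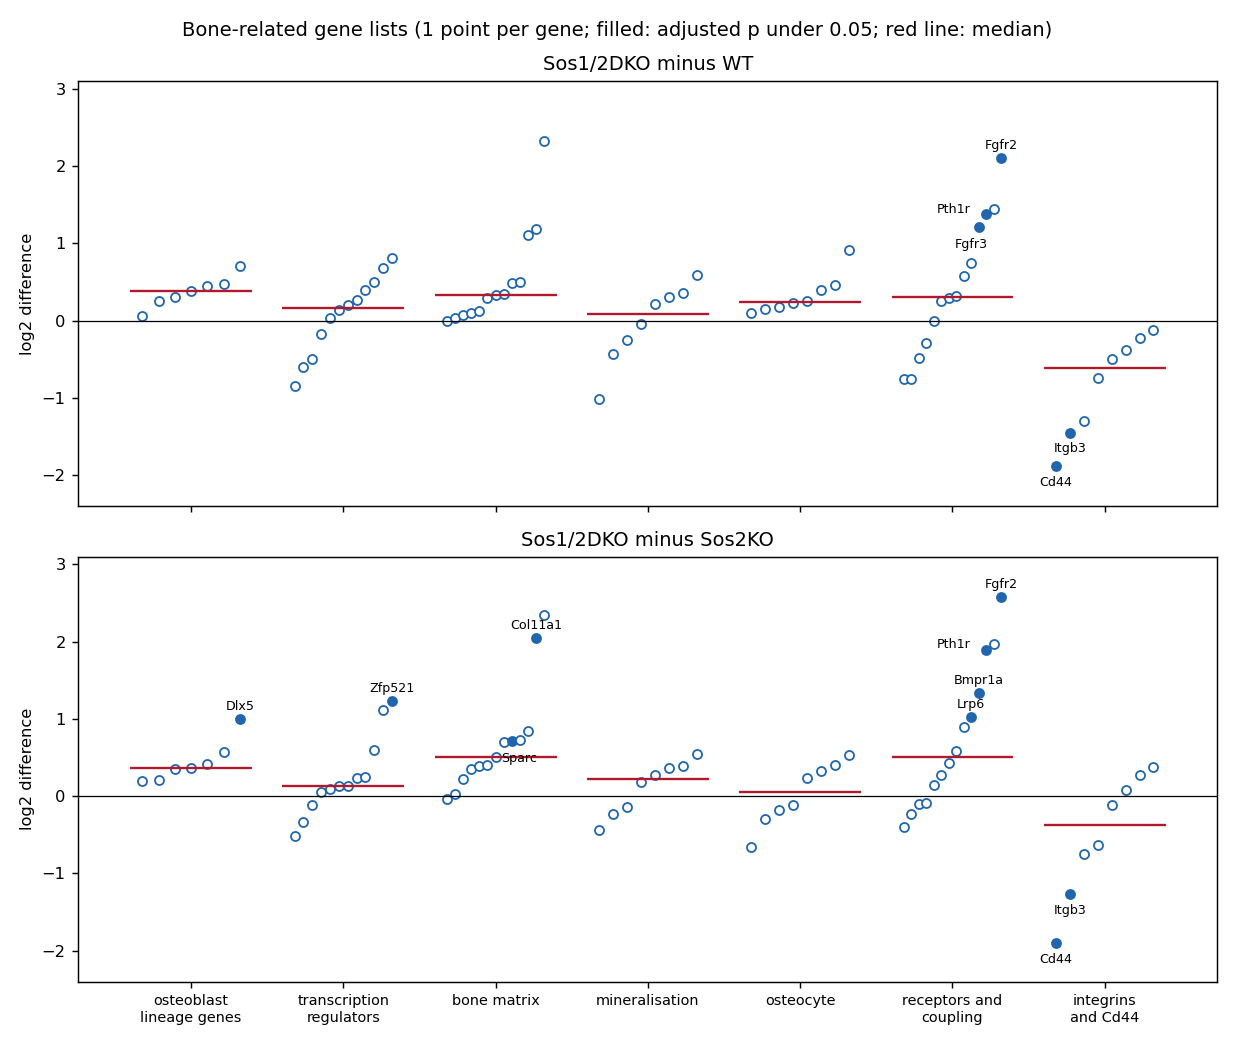
Each point is the log2 difference of 1 gene, Sos1/2DKO minus WT above and Sos1/2DKO minus Sos2KO below, grouped by list, with filled points at an adjusted p under 0.05 and the list median as a red line. In the upper panel the filled points are Fgfr2, Pth1r and Fgfr3 above 0 and Itgb3 and Cd44 below 0, with none among the osteoblast lineage genes; in the lower panel Dlx5 is filled at 1.00.

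The authors' deposited enrichment table for genes higher in Sos1/2DKO than in WT lists ossification with 45 of 382 genes (log10 q of -8.39), osteoblast differentiation with 20 of 201 genes (log10 q of -2.25) and bone mineralization with 17 of 118 genes (log10 q of -3.24). None of the 7 measured genes is named in any of the 285 terms of that authors' deposited table, and the list genes named under ossification there are Fgfr2, Fgfr3, Pth1r and Tnn. In the authors' deposited table for genes higher in Sos1KO, 2 of 147 terms name 1 of the 7 genes, Phex, and these are ossification with 25 genes (log10 q of -0.64) and bone mineralization with 11 genes (log10 q of -0.54).

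Markers of other cell types moved beside these results. Of 8 chondrocyte markers, all measured, 3 rose in Sos1/2DKO against WT by limma, where 5.94% of all genes were called, namely the matrix proteins Comp (adjusted p 0.0214), Hapln1 (adjusted p 0.0482) and Col9a1 by 1.07 (adjusted p 0.0145). Hapln1 exceeded the negative control percentile on 0 of 3 WT arrays and Comp on 1 of 3, so the size of their differences is uncertain. Both rises rested mostly on 2 of 3 Sos1/2DKO arrays, with Comp at 9.34, 9.59 and 6.42 and Hapln1 at 8.74, 8.29 and 5.97. In Sos1KO, Hapln1 lay at 4.71, 8.21 and 7.70. Against Sos2KO, where Dlx5 was called, 2 of 8 rose beside 6.14% of all genes, Comp by 2.86 (adjusted p 0.0293) and Col9a1 by 0.88 (adjusted p 0.0321). The mean chondrocyte marker level was 7.13 in Sos1/2DKO (arrays 6.29 to 7.83), 6.51 in Sos1KO (5.71 to 7.03), 5.72 in Sos2KO (5.64 to 5.83) and 5.76 in WT (5.69 to 5.83). Of 8 such markers, 2 in Sos1/2DKO, 2 in Sos1KO, 3 in Sos2KO and 3 in WT had means under the negative control percentile. The tendon gene Thbs4 rose by 0.72 against WT, the adipocyte regulator Pparg by 2.55 against Sos2KO, and the fibroblast surface gene Thy1 fell by 1.54 against WT and fell by 2.07 against Sos2KO. These were 1 of 5 tenocyte, 1 of 6 adipocyte and 1 of 7 fibroblast markers measured. Mean tenocyte marker levels were 7.07 in Sos1/2DKO (6.92 to 7.18), 6.79 in Sos1KO (6.45 to 6.95), 6.42 in Sos2KO (6.21 to 6.56) and 6.54 in WT (6.25 to 6.83). Mean adipocyte marker levels were 6.74 in Sos1/2DKO (6.44 to 7.33), 6.17 in Sos1KO (5.81 to 6.43), 5.82 in Sos2KO (5.70 to 5.90) and 5.90 in WT (5.75 to 6.13). Of 14 macrophage and 6 skeletal muscle markers, 0 were called by limma in either of these comparisons. Mean macrophage marker levels were 5.90 in Sos1/2DKO (5.32 to 6.31), 6.64 in Sos1KO (6.25 to 7.24), 5.36 in Sos2KO (4.93 to 5.95) and 6.39 in WT (5.75 to 7.53). The mean level of the 7 fibroblast markers lay between 9.59 and 10.93 on single arrays, over all groups, although Thy1 fell. Marker calls against Sos2KO were not examined with the spike-in term or the negative control term. Those against WT were not examined with a term for embryo sex or without WT replicate 1. The part of these cell types in the osteoblast lineage values was not tested.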

How the data were processed

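Per the submitters' processing notes, the authors made the deposited log2 values with RMA in R 3.6.3; no build is named, and coordinates printed are RefSeq's own. The authors' deposited tables hold log2 fold changes and p-values, and their enrichment tables give p and q as logarithms, per the file headers. These deposited logarithms were read as log10, because a natural log would imply 71 tests, fewer than the 285 terms listed. Group mean differences equalled the authors' fold changes to within 6.22e-09. Of 29129 probe sets, 19572 had 1 symbol in the platform annotation and 9557 were unnamed. Where a gene had more than 1 probe set (55 genes), the brightest on average was kept, leaving 19505 genes. limma 3.58.1 in R 4.3.3 fitted a mean per genotype (8 residual degrees of freedom), with two-sided tests, Benjamini-Hochberg adjustment over all genes and calls at an adjusted p under 0.05. The fit was tested on simulated data. The number of arrays limits the precision.

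Arrays were grouped by their titles. The members and lists were chosen with earlier results of these data known. Named genes are all members, Sos1 and Sos2, up to 4 called genes per list and comparison, and the 3 genes most like a called member; Omd and Bglap2 were named after their values were seen. Alternatives were median centring, cyclic loess, array weights, a trended robust prior, every probe set, leaving out genes under the 30th percentile of mean level, fits of 2 groups, the replicate block, each array left out, a term for arrays with the Dap spike-in (over 1 log2 unit above all WT arrays) and the arrays without it. A threshold of 0.25, the authors' fit, and terms for negative controls and embryo sex were chosen after seeing the data. Same-numbered arrays deviated together (r over 0.1) in 6 of 18 pairs, from -0.35 to 0.30, so numbers were not treated as pairs.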

Additional observations from a re-analysis of the deposited data

Results flagged for a closer look

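The poly-A control Dap, outside the measurement of mouse genes, exceeded all WT arrays by over 1 log2 unit on 5 arrays. These were Sos1/2DKO replicate 1, Sos1KO replicate 3 and the 3 Sos2KO arrays, at 6.01 to 9.29, against 3.89 to 4.13 on the other 7. All Sos2KO arrays and no WT array carried it, so those groups alone give no value within it. The fit over 4 groups with the spike-in as a term gave a Sos2KO minus WT difference of -0.50 for Dlx5, against -0.55 without the term.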

How the results depend on the processing

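Among the 7 genes, 938 single values of 49 results were recomputed under alternatives: 866 kept direction and side of the threshold, 14 changed side and 58 turned direction. Settings that leave the group means as they are, such as every probe set, a trended robust prior and the 0.25 threshold, could not turn a direction. For Sos1/2DKO against Sos2KO, the number called was 0 with array weights, with the spike-in term and with the negative control term, 3 at an adjusted p under 0.25, and 0 to 1 with an array left out. Sos1KO against Sos2KO gave 1 (Dlx5) with array weights and at 0.25. Sos1/2DKO against WT gave 3 at 0.25 but 0 in the authors' fit, and Sos1KO against WT gave 1 (Phex) in the authors' fit. With the replicate block, the number called was 1 for Sos1/2DKO against Sos2KO and 0 elsewhere, and the block changed no call. Postn in Sos1/2DKO minus WT turned to -0.0082 under median centring, -0.23 with array weights and -0.024 with the negative control term, and ranged from -0.29 to 0.35 with an array left out. Postn in Sos2KO minus WT turned to 0.23 with the spike-in term and 0.0024 with the negative control term. With an array left out, Dlx5 in Sos1KO minus WT ranged from -0.078 to 0.33 and Ibsp in Sos1/2DKO minus WT from -0.12 to 0.51. The causes of these changes were not tested. The dim filter removed Alpl, Ibsp and Phex; fits of 2 groups gave no interaction, and arrays without the spike-in gave no comparison with Sos2KO. Signal near background limits Alpl, Phex, Ibsp and Sp7.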
